A study of Mus musculus with 3 samples.

Results

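The aryl hydrocarbon receptor pathway was followed through 5 genes: Ahr, which encodes the receptor, Ahrr and Tiparp, which encode repressors of it, and Cyp1a1 and Cyp1b1, which encode enzymes induced by it. For each gene, the peaks of the histone mark H3K36me3 whose midpoint lay within the GENCODE M21 gene body were taken from the peak table on the mm10 mouse genome. Ahr, Ahrr and Tiparp had 48 of the 120910 peaks of the table, and Cyp1a1 and Cyp1b1 had 0. The mark had been profiled by ChIP-seq, in which chromatin carrying it is precipitated with an antibody and sequenced, in regulatory T cells (Treg cells), the Foxp3+ T cells that restrain immune responses, to see how it differs between the spleen and the large intestine (LI). Both libraries came from untreated C57BL/6 mice with the genotype Foxp3-YFP, in which a Cre recombinase fused to yellow fluorescent protein is expressed from the Foxp3 locus and marks the cells to be sorted. No gene was deleted in these mice, the study's methods give young adult mice as the default age, and cells of 7 female and 7 male mice were pooled. There was 1 library for each tissue, so each difference is between 2 libraries, has no replicate check and carries no p-value. Another library, the input made from splenic chromatin, was not analysed here.

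The aryl hydrocarbon receptor is a transcription factor that waits in the cytosol, bound to chaperones, until a ligand such as a dietary indole, a tryptophan metabolite or a dioxin binds it. It then enters the nucleus, pairs with Arnt and binds DNA at sites with the core GCGTG. Ahrr, the product of one of its target genes, competes for Arnt and shuts the response down. Tiparp, an enzyme that adds single ADP-ribose units to proteins, is also induced by the receptor and also represses it, while Cyp1a1 and Cyp1b1 oxidise xenobiotics and clear the ligands themselves. The receptor is known for its role in immune cells at barrier surfaces such as the gut. H3K36me3 is laid down by Setd2, which travels with elongating RNA polymerase II, so the mark covers the bodies of transcribed genes and is low at their starts.

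Because all 5 genes are placed under the same receptor, the sequence just upstream of their starts is shown first, with each match to GCGTG, or to its reverse complement CACGC, in capitals. The sequences were taken from the RefSeq promoter table for build GRCm38.p6, which held 4 of the 5 members and not Ahr. They are given 5′ to 3′ on the strand of the gene. The Tiparp sequence stops before the GENCODE start, which lies upstream of the start in the table. The other sequences stop before the first exon at the start that the table uses. For Cyp1a1 that start lies within the GENCODE gene body, which also includes a transcript that begins farther upstream.
Ahrr upstream region, chr13:74292332-74292581, minus strand: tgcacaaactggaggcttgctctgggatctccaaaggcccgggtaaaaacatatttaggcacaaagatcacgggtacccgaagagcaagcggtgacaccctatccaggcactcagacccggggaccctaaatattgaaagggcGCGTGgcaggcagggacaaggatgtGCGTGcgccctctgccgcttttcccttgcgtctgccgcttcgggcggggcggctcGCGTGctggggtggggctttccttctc
Tiparp upstream region, chr3:65528197-65528409, plus strand: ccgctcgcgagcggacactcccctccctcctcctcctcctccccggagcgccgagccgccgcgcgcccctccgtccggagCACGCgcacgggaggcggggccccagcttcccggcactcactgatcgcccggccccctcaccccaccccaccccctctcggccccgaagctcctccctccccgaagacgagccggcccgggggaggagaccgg
Cyp1a1 upstream region, chr9:57697363-57697612, plus strand: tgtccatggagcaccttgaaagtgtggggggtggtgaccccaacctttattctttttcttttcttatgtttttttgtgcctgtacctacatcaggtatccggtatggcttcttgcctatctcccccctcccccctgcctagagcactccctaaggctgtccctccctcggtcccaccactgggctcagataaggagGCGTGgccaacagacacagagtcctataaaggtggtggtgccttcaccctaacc
Cyp1b1 upstream region, chr17:79715062-79715311, minus strand: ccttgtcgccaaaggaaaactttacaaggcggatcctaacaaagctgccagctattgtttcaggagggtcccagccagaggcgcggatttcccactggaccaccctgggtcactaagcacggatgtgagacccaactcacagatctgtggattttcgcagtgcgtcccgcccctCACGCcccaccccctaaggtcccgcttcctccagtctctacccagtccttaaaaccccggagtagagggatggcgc

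The 300-bp windows of these promoters held 3 matches in Ahrr and 1 each in Tiparp, Cyp1a1 and Cyp1b1, counted on both strands. Of all 32851 windows of that length in the table, 32.4% held at least 1 match and 11.1% at least 2, so 1 match is common and the 3 of Ahrr are less so. A match is only a run of letters, and no binding was measured. None of the 4 windows held an H3K36me3 peak: the nearest peak lay 9.16 kb away for Ahrr, 3.07 kb for Tiparp, 15.1 kb for Cyp1a1 and 134.4 kb for Cyp1b1.

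All 3 members with peaks had more H3K36me3 in LI Treg cells than in Treg cells of the spleen, and they differed widely in how much more. The level of a gene is given as the mean signal over its peaks, weighted by peak length, in RPKM, a coverage scaled to peak length and to the depth of the library. It is followed by an approximate 95% interval that covers counting error only and takes each read to span 200 bp. In spleen the level was 8.71 RPKM (8.01 to 9.46) for Ahr, 5.31 (3.97 to 6.95) for Tiparp and 1.68 (1.29 to 2.15) for Ahrr. This order had no overlapping intervals. In LI the level was 16.9 RPKM (16.0 to 17.8) for Ahr, 12.9 (11.9 to 14.0) for Ahrr and 11.6 (9.76 to 13.6) for Tiparp. Ahr was again first, whereas the intervals of Ahrr and Tiparp overlapped. For each of the 3 genes the LI interval lay above the spleen interval.

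**Figure D1:**
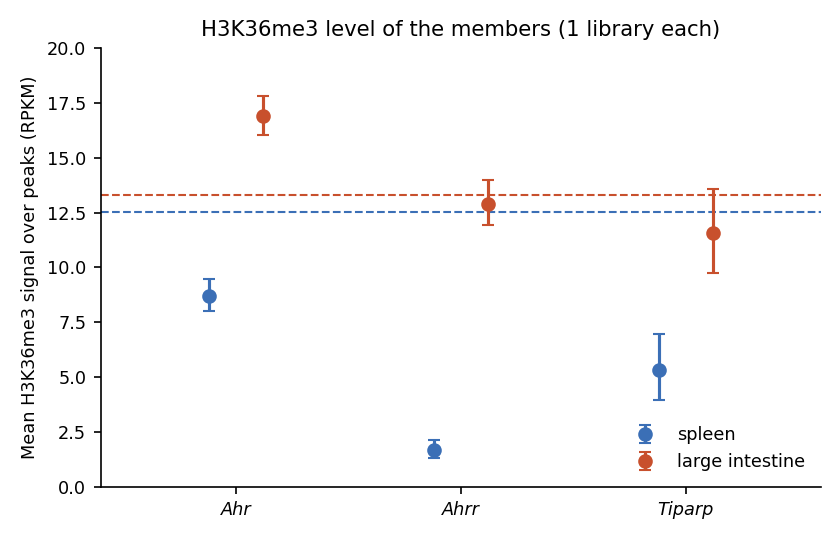
H3K36me3 level of Ahr, Ahrr and Tiparp in 1 splenic and 1 LI library (vertical axis, mean signal over the gene's peaks weighted by peak length, in RPKM, with approximate 95% counting intervals as bars). Dashed lines mark the median level of all genes compared, 12.5 RPKM in spleen and 13.3 RPKM in LI. All 3 spleen points lie below the spleen median, and in LI only Ahr lies above the LI median.

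Set against the 10886 genes with at least 20 RPKM summed over both libraries, the members moved from the low end of the spleen ranking towards the middle or above in LI. The Ahrr level was higher than that of 0.073% of these genes in spleen and of 47.0% in LI. For Tiparp these shares were 2.03% and 35.1%, and for Ahr 12.4% and 72.0%. In spleen, all 3 therefore lay well below the middle of the ranking. The ranking holds only genes with a peak called in either tissue, so genes low in both are missing from it. A gene listed for its LI signal lands at the low end in spleen through this selection, and the ranks carry it. Less signal in a library can reflect fewer cells that carry the mark on a gene or less of it per cell, which cannot be told apart in sorted cells measured in bulk.

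The difference between tissues is given as a log2 ratio of LI over spleen of the signal summed over a gene's peaks, each peak counting equally, with a pseudocount of 0.5 RPKM and after each library was scaled to its total over all peaks. The log2 ratio was 3.04 for Ahrr (2.55 to 3.52, 8.20-fold), 1.22 for Tiparp (0.72 to 1.72, 2.33-fold) and 0.91 for Ahr (0.71 to 1.11, 1.88-fold). Ahrr and Tiparp were thus past 2-fold and Ahr was not, and the intervals of Ahr and Tiparp both included 2-fold. Of all 10886 genes, 3.42% were past 2-fold towards LI and 2.04% towards spleen, with a median log2 ratio of 0.00 and the middle 50% between -0.20 and 0.24. Ahrr had the highest log2 ratio of the 9456 protein-coding genes compared with these settings, Tiparp ranked 196 and Ahr 386. The log2 ratio of Ahrr exceeded that of Tiparp by 1.81 (1.11 to 2.52). Ahr lay below Ahrr by 2.13 (an interval of the difference of -2.65 to -1.60). The difference between Ahr and Tiparp, -0.31, had an interval of -0.85 to 0.23, so their order was not settled at this depth.

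**Figure D2:**
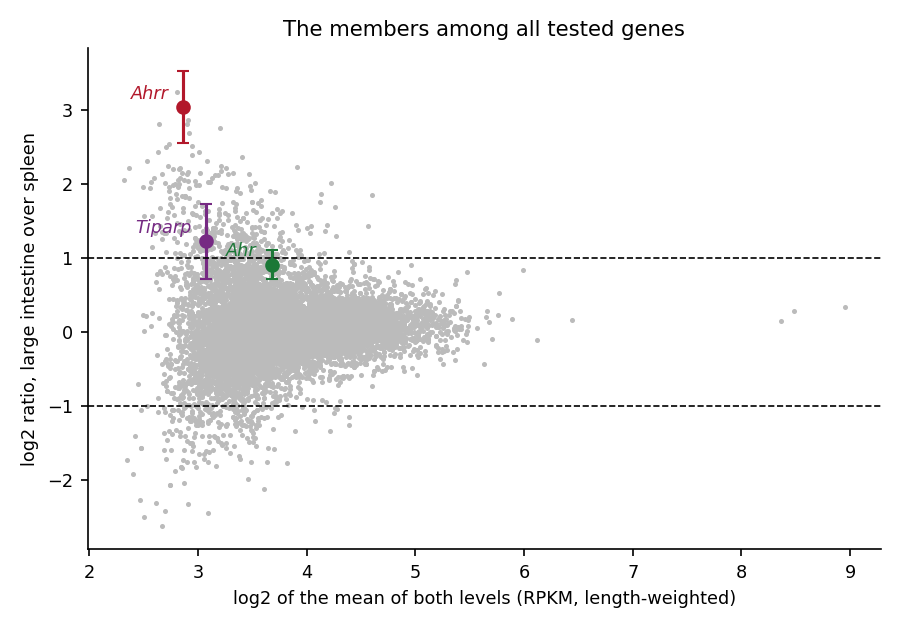
Each grey point is 1 of the 10886 genes compared, with the log2 of the mean of its spleen and LI levels on the horizontal axis and its log2 ratio of LI over spleen on the vertical axis. Coloured points are the members with approximate 95% counting intervals and dashed lines mark 2-fold. Ahrr at 3.04 sits near the top of the cloud, and Tiparp at 1.22 and Ahr at 0.91 lie to either side of the upper 2-fold line.

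The direction was shared by every peak. All 48 peaks of the 3 genes had more signal in LI after scaling, against 48.9% of all peaks in the table. The share with more LI signal depends on the spleen level. It was 100% among all peaks with no more spleen signal than the highest Ahrr peak. With the limit set by Tiparp it was 85.6%, and with the limit set by Ahr 52.9%. For Ahrr and Tiparp the 48.9% is thus not a like background. Past 2-fold towards LI were 33 of the 48, against 9.00% of all peaks, and 0 were past 2-fold towards spleen, against 9.65%. Of these 33, 21 were Ahrr peaks, and the share past 2-fold depends on the spleen level: it was 96.0% among all peaks with no more spleen signal than the highest Ahrr peak, 32.4% with the limit set by Tiparp and 11.3% with the limit set by Ahr. An approximate interval wholly above 0 was found for 26 of the 48. The share of all peaks with such an interval was not counted, so neither this number nor the counts by gene below have a background. Peaks of 1 gene share a transcription unit and a library and are not replicates. Among the 4325 genes with at least 9 peaks, 115 (2.66%) had more LI signal in every peak. None of the 48 peaks had its midpoint in another gene.

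Ahrr, the receptor's repressor, lies on the minus strand at chr13:74211118-74292331 and had 21 peaks over 12644 bp, or 15.6% of its body. Summed over them, the signal came to 30.6 RPKM in spleen and 263.1 RPKM in LI, which corresponds to about 63 and 622 reads of 200 bp. The peaks held 0 to 3.71 RPKM in spleen, with a median of 1.40, and 7.92 to 19.6 RPKM in LI, with a median of 11.96. The highest spleen value was thus below the lowest LI value, and all 21 peaks were past 2-fold. In 15 of them the interval of the log2 ratio lay above 0. The median Ahrr peak was stronger than 0.405% of all peaks in spleen and 63.5% in LI.

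The table joins the peaks called in either tissue, so a peak that is very low in spleen was kept for its LI signal. This fixes the direction of such peaks, and nearly fixes their size: all 4723 peaks (3.91%) of the table with at most 3.71 RPKM in spleen had more signal in LI, and 96.0% of them were past 2-fold towards LI, with a median log2 ratio of 1.73. The count of 21 of 21 past 2-fold is therefore close to what the low spleen values alone fix. What was measured for Ahrr is how low its spleen values were, at most 3.71 RPKM in all 21 peaks. Of the genes compared, 9 had 21 or more peaks this low in spleen. Ahrr was the only gene with at least 10 peaks of which every one was this low. The limit was the highest spleen value of Ahrr itself, so Ahrr met it by construction. With the limits set by Tiparp and Ahr, 21 and 456 genes had at least 10 peaks that were all as low. Being the only such gene therefore depends on the limit.

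Along Ahrr the peaks formed 3 blocks separated by 16.7 kb and 29.7 kb without a peak. The first block held 9 peaks, with midpoints 9.49 to 18.5 kb from the gene start, with a level of 1.59 RPKM in spleen and 14.6 RPKM in LI and a log2 ratio of 3.15 (2.42 to 3.89). The middle block held 3 peaks at 35.4 to 37.7 kb, with 0.947 and 9.72 RPKM and a log2 ratio of 2.98 (1.48 to 4.48). The last block held 9 peaks at 67.7 to 78.3 kb, with 1.84 and 12.4 RPKM and a log2 ratio of 2.82 (2.15 to 3.49). The 3 intervals overlapped, so no part of the gene stood apart from another in its ratio. By annotation, 15 of the 21 peak midpoints lay in introns, 3 in coding exons and 3 in exons of noncoding transcripts.

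Within the first block, a cluster of short peaks about 15 kb into the gene carried the strongest LI signal. Peak 5, in an intron, held 1.09 RPKM in spleen and 19.6 RPKM in LI, the highest LI value of the gene. Its neighbour, peak 7, held 2.13 and 19.5 RPKM, and peak 4, over a coding exon, held 0.766 and 16.9 RPKM. These peaks are short, and a spleen value near 1 RPKM in peak 5 amounts to about 1 read. The sequence of peak 5 is shown on the strand of the gene as the site of the strongest Ahrr mark in LI, in lower case throughout because it held no match to GCGTG.
Ahrr peak 5, chr13:74276945-74277216, minus strand: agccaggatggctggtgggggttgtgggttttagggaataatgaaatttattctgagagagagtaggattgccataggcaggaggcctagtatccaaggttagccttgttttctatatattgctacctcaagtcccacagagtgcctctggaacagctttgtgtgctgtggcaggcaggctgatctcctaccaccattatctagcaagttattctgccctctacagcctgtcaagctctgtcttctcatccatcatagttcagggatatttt

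At the other end of Ahrr the signal was spread over longer stretches. The last peak, 3266 bp over a coding exon near the gene end, was the longest and held 2.52 RPKM in spleen and 13.8 RPKM in LI. Its log2 ratio of 2.20, or 4.59-fold, was lower than that of the whole gene, and this peak alone rests on 24.4 and 171.6 reads. Peak 15, of 1353 bp over a coding exon, held 0.919 and 11.6 RPKM. Peaks 13 and 14, with midpoints in introns at the start of the last block, were listed at 0 in spleen and held 12.2 and 10.3 RPKM in LI. Their ratios and intervals therefore depend on the pseudocount and on an assumed minimum of spleen reads. The smallest difference was in peak 16, an intronic peak with 3.71 RPKM in spleen and 12.6 RPKM in LI, where the log2 ratio was 1.59.

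The genes on either side of Ahrr did not share its difference. Exoc3, a subunit of the exocyst that tethers secretory vesicles, lies 2.39 kb beyond the gene end and had 12.1 RPKM in spleen and 15.2 RPKM in LI, a log2 ratio of 0.23 (0.07 to 0.38). Pdcd6, a calcium-binding protein gene 11.2 kb upstream, had 12.5 and 12.6 RPKM, a log2 ratio of -0.10 (-0.45 to 0.25). Both intervals lie below that of Ahrr.

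**Figure D3:**
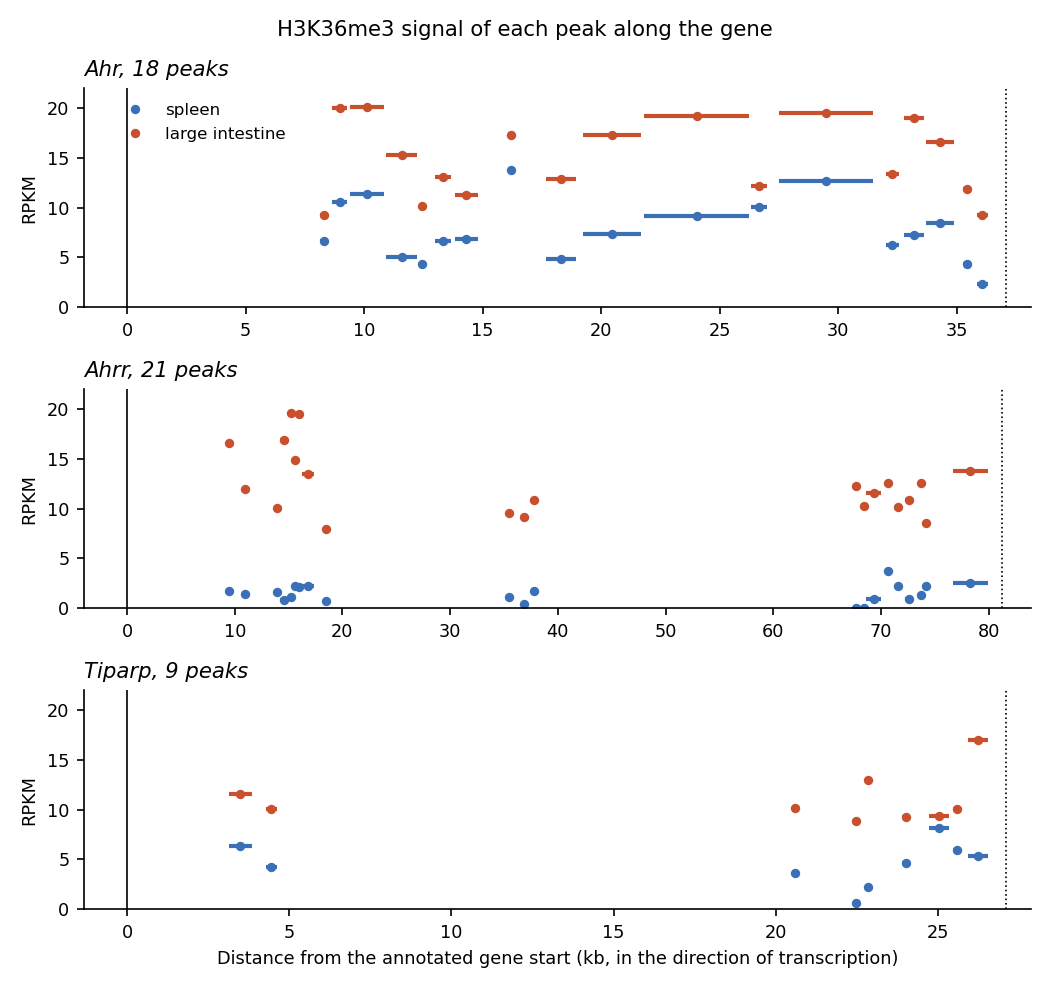
H3K36me3 signal of each peak (vertical axis, RPKM) against its distance from the annotated gene start (horizontal axis, kb in the direction of transcription) for Ahr, Ahrr and Tiparp, with each peak drawn as a line over its length and a point at its midpoint, and the gene end as a dotted line. In Ahrr all LI points (7.92 to 19.6 RPKM) lie above all spleen points (0 to 3.71 RPKM), in Tiparp they also do not overlap (8.87 to 17.0 against 0.643 to 8.12), and in Ahr the ranges overlap although each LI point lies above its own spleen point.

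Tiparp, the ADP-ribosyltransferase, lies on the plus strand at chr3:65528410-65555518 and had 9 peaks over 3346 bp, or 12.3% of its body. The peaks summed to 41.0 RPKM in spleen and to 99.4 RPKM in LI, about 52.7 and 147.3 reads. Peaks held 0.643 to 8.12 RPKM in spleen, with a median of 4.60, and 8.87 to 17.0 RPKM in LI, with a median of 10.1. The ranges did not overlap, but the gap between them was small. All 9 peaks had more LI signal and 5 were past 2-fold, and the interval lay above 0 in 1. Of all peaks in the table with at most 8.12 RPKM in spleen, 85.6% had more signal in LI, so the shared direction was common among peaks of this level.

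The peaks of Tiparp stood at its ends. Peak 1, over a coding exon 3.49 kb from the start, held 6.36 RPKM in spleen and 11.6 RPKM in LI, and peak 2, in an intron 4.45 kb from the start, held 4.18 and 10.1 RPKM. The next peak midpoint lay at 20.6 kb. Over the first 50% of the body the log2 ratio was 0.96 (0.15 to 1.77) and over the second 50% it was 1.29 (0.68 to 1.90), with overlapping intervals. The single peak with its interval above 0 was the last, peak 9, 598 bp in the 3′ UTR, which held 5.35 RPKM in spleen and 17.0 RPKM in LI. Peak 7, over a coding exon close to it, held 8.12 and 9.32 RPKM, a log2 ratio of 0.14, so neighbouring peaks of the gene differed in size. By annotation, 5 midpoints lay in introns, 2 in coding exons and 2 in the 3′ UTR.

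The 2 intronic Tiparp peaks with the lowest spleen signal were peak 4, with 0.643 RPKM in spleen and 8.87 RPKM in LI, and peak 5, with 2.23 and 12.98 RPKM. They rest on 7.10 and 10.7 LI reads and on under 2 spleen reads each. Peak 5 is shown as the intronic Tiparp peak with the most LI signal, on the strand of the gene and again without a match to GCGTG.
Tiparp peak 5, chr3:65551152-65551367, plus strand: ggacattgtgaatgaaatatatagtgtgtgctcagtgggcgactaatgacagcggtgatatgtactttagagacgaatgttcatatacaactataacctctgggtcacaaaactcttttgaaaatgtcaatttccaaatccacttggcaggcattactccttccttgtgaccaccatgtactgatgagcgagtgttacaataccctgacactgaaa

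Around Tiparp the nearest protein-coding genes with peaks were far away and leaned the other way. Ssr3, a subunit of the endoplasmic reticulum translocon complex, 135.8 kb upstream, had a log2 ratio of -0.20 (-0.48 to 0.09). Ccnl1, a cyclin gene linked to RNA splicing, 390.6 kb downstream, had a log2 ratio of -0.27 (-0.43 to -0.12).

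Ahr, the receptor itself, lies on the minus strand at chr12:35497974-35535038 and was the most broadly covered, with 18 peaks over 22003 bp, or 59.4% of its body. Its sum over peaks came to 137.8 RPKM in spleen and 267.6 RPKM in LI, about 568 and 1416 reads, so its ratio was the most precise of the 3. Peaks held 2.30 to 13.8 RPKM in spleen, with a median of 7.09, and 9.22 to 20.1 RPKM in LI, with a median of 14.3. These ranges overlapped, yet each of the 18 peaks had more signal in LI than in spleen. Past 2-fold were 7 peaks, and in 10 the interval lay above 0. By annotation, 14 midpoints lay in introns, 1 in a coding exon, 2 in the 3′ UTR and 1 in an exon of a noncoding transcript.

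The midpoint of the first Ahr peak lay 8.29 kb from the start, at 22.4% of the body, and that of the last at 36.1 kb. A further peak overlapped the gene end with its midpoint beyond it, and the log2 ratio was also 0.91 when it was included. Over the first 50% of the body the level was 7.56 RPKM in spleen and 15.1 RPKM in LI, a log2 ratio of 0.84 (0.51 to 1.16). Over the second 50% it was 9.26 and 17.7 RPKM, a log2 ratio of 0.97 (0.74 to 1.21). The intervals of these ratios overlapped.

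Of the 18 peaks of Ahr, 7 were 1 kb or longer, and these carry most of its reads. The longest, peak 11, of 4438 bp with its midpoint in an intron, held 9.18 RPKM in spleen and 19.2 RPKM in LI. Peak 13, of 3989 bp with its midpoint in an intron, held 12.7 and 19.5 RPKM. Peak 10, 2437 bp, held 7.37 and 17.3 RPKM. All 3 reached a similar LI level from spleen levels that differed more, and the log2 ratio was 0.98, 0.56 and 1.13 in that order. Peak 3, of 1448 bp near the front, had the highest LI signal, with 11.3 RPKM in spleen and 20.1 RPKM in LI. Peak 4, of 1304 bp, held 4.98 and 15.2 RPKM, and peak 9, of 1240 bp, held 4.79 and 12.9 RPKM. Both were past 2-fold and lay in introns. Peak 16, of 1203 bp, held 8.44 and 16.6 RPKM.

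The peaks at the ends of Ahr included the lowest value of each tissue in the gene. Peak 18, in the 3′ UTR, held 2.30 RPKM in spleen and 9.22 RPKM in LI, and had the largest log2 ratio of the gene, 1.75. Peak 17, also in the 3′ UTR, held 4.33 and 11.9 RPKM. Peak 1, over a coding exon, held 6.65 and 9.28 RPKM, and its interval included no difference. The smallest log2 ratio, 0.22, was in peak 12, whose midpoint lay in an intron, with 10.1 RPKM in spleen and 12.2 RPKM in LI.

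A pair of short intronic peaks of Ahr shows the spread in this gene, and their sequences are given on the strand of the gene. Peak 5 held 4.30 RPKM in spleen and 10.2 RPKM in LI, had a GC content of 33.5%, and held no match to GCGTG. Peak 8 held 13.8 RPKM in spleen, the highest spleen value of the gene, and 17.3 RPKM in LI, only 1.21-fold more, with a GC content of 49.8%. It held no match either, but the 12-base stretch set in capitals occurred 5 times in it. How the aligner placed reads in such a repeat was not tested.
Ahr peak 5, chr12:35522490-35522689, minus strand: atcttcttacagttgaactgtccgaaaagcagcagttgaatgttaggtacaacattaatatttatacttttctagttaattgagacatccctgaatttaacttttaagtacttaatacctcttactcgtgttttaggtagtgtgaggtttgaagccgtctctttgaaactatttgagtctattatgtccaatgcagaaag
Ahr peak 8, chr12:35518698-35518980, minus strand: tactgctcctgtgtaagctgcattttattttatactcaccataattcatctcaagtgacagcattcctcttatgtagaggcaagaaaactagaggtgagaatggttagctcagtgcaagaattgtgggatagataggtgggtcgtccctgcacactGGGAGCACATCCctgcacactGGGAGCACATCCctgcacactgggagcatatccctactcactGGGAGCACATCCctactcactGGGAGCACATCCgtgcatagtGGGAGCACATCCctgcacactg
Of the 35190 peaks of 200 to 300 bp in the table, 15.0% held GCGTG on either strand, so its absence from these 4 peaks is common.

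Ahr lies alone in its region, with no other protein-coding gene with a peak within 350.5 kb. Snx13, a sorting nexin gene at that distance, had a log2 ratio of -0.42 (-0.69 to -0.15), and Tspan13, a tetraspanin gene 479.5 kb away on the other side, had -0.42 (-0.86 to 0.02). Neither neighbour had the higher LI signal of Ahr.

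Cyp1a1 and Cyp1b1, the cytochrome P450 targets most used as readouts of the receptor, had 0 peaks in either tissue. Cyp1a1 lies on the plus strand at chr9:57687928-57703824. The nearest peak to it was 8.92 kb away, within Edc3, with 12.1 RPKM in spleen and 10.9 RPKM in LI. Cyp1b1 lies on the minus strand at chr17:79701537-79715061, and its nearest peak was 134.6 kb away, with 10.8 RPKM in spleen and 5.97 RPKM in LI. The table lists only regions called as peaks, and 54.3% of the 21951 protein-coding genes had none. In 99% of the listed peaks the stronger of the 2 values was at least 6.71 RPKM, so a mark below about that level could have gone unlisted and 0 peaks is no measure of absence. The neighbours of both genes were marked in both tissues: Csk, a kinase that restrains T cell receptor signalling, had 31.5 RPKM in spleen and 31.3 RPKM in LI, Edc3, an mRNA decapping factor, 18.8 and 20.2, Cdc42ep3, a Cdc42 effector, 8.05 and 10.4, and Atl2, an endoplasmic reticulum GTPase, 10.9 and 9.85. Their log2 ratios ran from -0.20 (Atl2) to 0.15 (Cdc42ep3).

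Beyond the members, 30 further genes of the pathway were listed by role, of which 18 had a peak and 16 had at least 20 RPKM. Of these 16, 8 had more signal in LI and 8 in spleen, with a median log2 ratio of 0.01, against 0.00 over all genes. Past 2-fold towards LI were 3 of the 16, and 0 were past 2-fold towards spleen, against 3.42% and 2.04% of all genes. The interval lay above 0 in 4 genes and below 0 in 2, and the same was not counted over all genes. The counts by direction were even, and the 3 genes past 2-fold, Arnt2, Il10 and Src, were all higher in LI. The single Il10 peak, at 3.68 RPKM in spleen, lay under the 3.71 RPKM up to which every listed peak had more LI signal. Its direction was therefore fixed, and the spleen level of Arnt2, 2.67 RPKM, was low too. For Il10 and Arnt2 the 3.42% is thus not a like background.

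Among the dimer partners, chaperones and cytosolic complex, Arnt, the partner that the receptor needs for binding DNA, had 10.8 RPKM in spleen and 11.9 RPKM in LI, a log2 ratio of 0.04 (-0.12 to 0.19). Arnt2, its paralog, had 2.67 RPKM in spleen and 12.3 RPKM in LI over 8 peaks, a log2 ratio of 2.14 (1.42 to 2.85). Its body shares a stretch with an antisense gene, Gm30873, and the mark carries no strand. Src, the kinase held in the cytosolic complex, had 8.75 and 21.5 RPKM over 15 peaks, a log2 ratio of 1.38 (1.09 to 1.67). Hsp90aa1, a chaperone of the receptor, had 16.0 and 14.2 RPKM and a log2 ratio of -0.51 (-0.89 to -0.13). The chaperone Hsp90ab1 had a log2 ratio of -0.01 and the cochaperone Ptges3 one of -0.20, and both intervals included 0. The 5 coactivators Ncoa1, Ncoa2, Ncoa3, Ep300 and Crebbp, which link the bound receptor to histone acetylation, ran from -0.26 to 0.03, and only Crebbp, at -0.18 (-0.30 to -0.06), had an interval that excluded 0.

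Of 11 further genes reported as targets of the receptor, 5 had a peak. Il10, an anti-inflammatory cytokine of Treg cells, had a single peak of 4626 bp with 3.68 RPKM in spleen and 18.4 RPKM in LI, a log2 ratio of 2.13 (1.75 to 2.51). Entpd1, which encodes the ATP-degrading enzyme CD39, had 8.45 and 12.5 RPKM over 26 peaks, a log2 ratio of 0.62 (0.38 to 0.86). Nfe2l2, a regulator of the antioxidant response, had a log2 ratio of -0.18 (-0.53 to 0.17). Gpr15, a receptor that guides T cells to the large intestine, fell short of 20 RPKM with 1 peak of 2.33 RPKM in spleen and 14.2 RPKM in LI. So did Kit, with 1 peak of 1.35 and 7.48 RPKM. Like the Il10 peak, both lay under the 3.71 RPKM in spleen up to which every listed peak had more LI signal. Their direction was therefore fixed. The xenobiotic enzymes Cyp1a2, Nqo1, Aldh3a1 and Ugt1a6a had no peak, like Cyp1a1 and Cyp1b1, nor had Il22 and Lpcat2. Of 8 enzymes that make or break down tryptophan-derived ligands, Il4i1 (0.16) and Afmid (0.15) had peaks with log2 ratios near 0, and Ido1, Ido2, Tdo2, Kmo, Kynu and Haao had none.

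**Figure D4:**
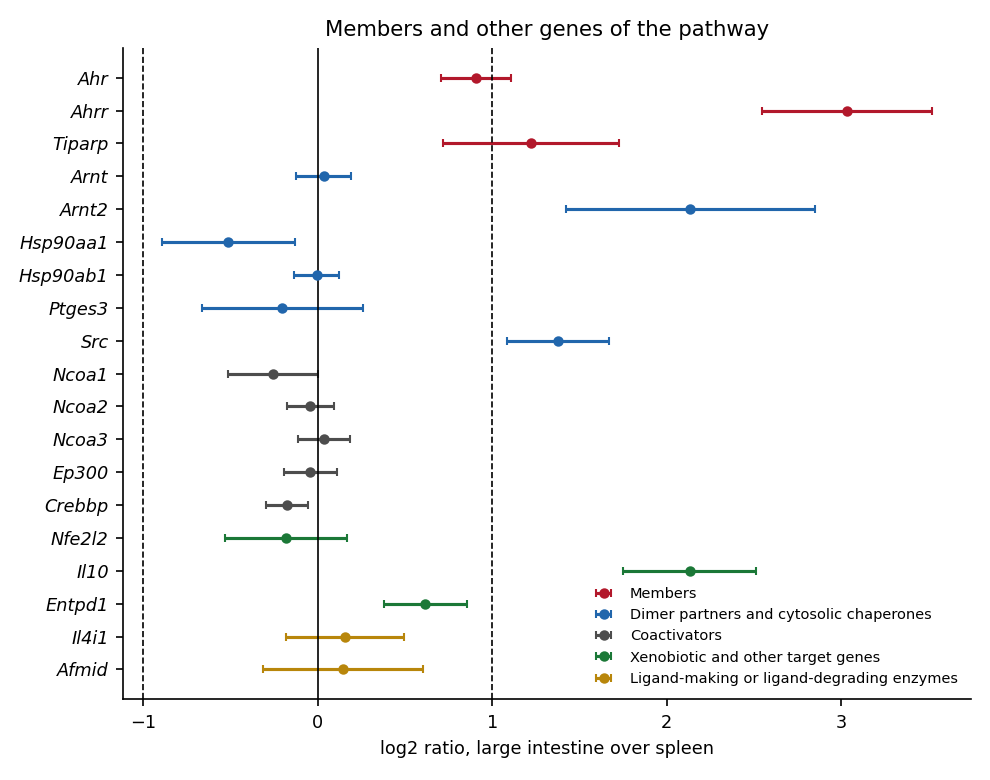
Log2 ratio of H3K36me3 in LI over spleen (horizontal axis) for the 3 members with peaks and the 16 further pathway genes with at least 20 RPKM, coloured by role, with approximate 95% counting intervals as bars and 2-fold as dashed lines. Ahrr (3.04), Arnt2 (2.14), Il10 (2.13), Src (1.38) and Tiparp (1.22) lie right of the upper 2-fold line, while Arnt (0.04) and the coactivators lie near 0.

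Over the levels of these 2 libraries, the genes most like each member were found by the Euclidean distance between log2 levels. For Ahrr they were Rpgrip1l (1.63 RPKM in spleen, 13.3 RPKM in LI, distance 0.057), Cd80 (1.52 and 13.5, distance 0.13) and Lilr4b (1.55 and 11.7, distance 0.16), each with 2 peaks against the 21 of Ahrr. For Tiparp they were Cnpy4, Tec and Zfp667, at distances of 0.024, 0.025 and 0.034. For Ahr they were Cyren, Kcnk5 and Fam189b, at 0.014, 0.028 and 0.034. With only 2 libraries, such a distance compares a pair of levels and nothing more.

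The sorted identity was checked with marker genes. All 5 Treg cell markers, Foxp3, Cd4, Cd3e, Il2ra and Ctla4, had peaks in both tissues, at 18.0 to 25.9 RPKM, and their log2 ratios were 0.19, 0.13, -0.41, -0.08 and 0.59 in that order. Together they summed to 571.6 RPKM in spleen and 624.5 RPKM in LI. Of 6 markers of intestinal epithelium, 2 had a peak, and together these came to 29.9 RPKM in spleen and 59.8 RPKM in LI. Epcam, an epithelial adhesion molecule, had 4.88 and 9.24 RPKM, and Vil1, a protein of the brush border, 4.63 and 12.6 RPKM. The epithelial markers Krt8, Krt20, Cdh1 and Cdx2 had no peak. The log2 ratio was 0.84 (0.23 to 1.46) for Epcam. Vil1 fell short of 20 RPKM, and its interval, -0.13 to 2.75, included no difference. The 2 epithelial markers with a peak thus leaned towards LI like the members. Both were low in spleen, and 85.6% of all peaks with at most 8.12 RPKM in spleen had more signal in LI. Such a lean is therefore common at this level. The part of epithelial markers in the difference of the members was not tested. Of 3 B cell markers, 2 had a peak, and the sum was 51.3 RPKM in spleen and 39.7 RPKM in LI, with none in Ms4a1. The 2 went opposite ways. Cd79a summed to 47.2 RPKM in spleen and 29.8 RPKM in LI, a log2 ratio of -0.70 (-1.32 to -0.08). Pax5 had 1 peak of 4.05 and 9.91 RPKM, short of 20 RPKM, with a log2 ratio of 1.15 (-0.75 to 3.05). Of 5 myeloid markers, 2 had a peak, with sums of 29.7 and 31.3 RPKM and none in Lyz2, Itgam and Csf3r.

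Depth and base composition differed between the libraries. The step between possible values gave about 29600000 mapped reads in spleen and 38100000 in LI. The ratio rose with GC content, from a median of -0.53 in the 5% of peaks with the lowest GC content to 0.35 in the 5% with the highest. The members lay below the median GC content of all genes, 48.2%, at 46.8% for Ahrr, 42.7% for Ahr and 40.8% for Tiparp. With the ratio corrected for GC content, the log2 ratio was 3.02 for Ahrr, 1.46 for Tiparp and 1.05 for Ahr, so Ahr then passed 2-fold. From the peak with the most signal over its whole length alone, peak 21 of Ahrr and peak 13 of Ahr, the log2 ratio was 2.20 for Ahrr and 0.56 for Ahr.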

How the data were processed

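H3K36me3 ChIP-seq was performed on Treg cells sorted from spleen and LI. Reads (75 nt, single-end) were mapped by the authors to mm10, MACS2 was run per tissue with the input as control, the peak sets were merged, and coverage was averaged over each merged peak. The submitters' processing notes also name FastQC, Bowtie2 and bedtools, without their roles. The deposited values are mean RPKM per peak, although the table is labelled as raw counts, so no count test was run. In 100% of 41012 spleen and 39911 LI products of value and peak length that were low enough to tell, the product was a whole multiple of 1 step (tolerance 0.02).

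Peaks were assigned by midpoint to GENCODE M21 genes and summed, each library was scaled to its total over all peaks (LI 1.03 times spleen), and log2 ratios used a pseudocount of 0.5 RPKM and a minimum of 20 RPKM over both libraries. The pseudocount makes the ratios of low genes smaller. Peaks low in spleen were listed for their LI signal, which acts the other way on their ratios. Intervals treat reads as independent molecules. The ratio was tested on simulated data, with independent reads of the 200 bp that the intervals assume, drawn on the peaks already listed. The simulation held no selection of peaks and no variation between libraries, so it cannot speak to either limit. Python 3.11.15, pandas 2.3.3, numpy 2.4.6 and pysam 0.24.0 were used. Members and gene lists were chosen with earlier results of these data known. Named genes were the members, listed pathway genes past 2-fold, the 3 protein-coding genes nearest to each member in level, the nearest marked protein-coding gene on each side and Treg cell markers; other genes of the lists were named to account for them. A few listed genes are not reported here and are left out of the counts of the lists. Alternatives changed scaling, pseudocount, filter, weighting, peak assignment and GC correction.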

Additional observations from a re-analysis of the deposited data

How the results depend on the processing

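With 1 library per tissue, no setting replaces the replicate that is missing, and the limits of depth are those of the counting intervals. No paired analysis was possible because each tissue had 1 library. The members kept their direction in all 32 values recomputed under other settings, and in 30 of them moved by less than the counting interval. Each of the 48 member peaks had more LI signal, so settings that only select or reweight these peaks could not reverse the direction. For Ahrr it was also fixed by the listing of peaks that were low in spleen. The kept direction is therefore no check under those settings. Some of the values could hardly differ in size either. Leaving out peaks in other genes changed nothing, as no member peak had its midpoint in one, and a change of scaling shifts all genes alike. The log2 ratio ran from 0.56 to 1.05 for Ahr, from 2.20 to 3.15 for Ahrr and from 1.02 to 1.54 for Tiparp. The peak with the most signal over its whole length alone (peak 13 of Ahr, peak 21 of Ahrr) gave 0.56 for Ahr and 2.20 for Ahrr, each resting on fewer reads. GC correction took Ahr past 2-fold, at 1.05. Tiparp had no peak of 1 kb or more, and Cyp1a1 and Cyp1b1 no peak at all, so these gave no value. Leaving out peaks in other genes, leaving out that peak and a read span of 75 bp were added after the data had been seen. With 75 bp the intervals narrowed to 0.79 to 1.03 for Ahr, 2.74 to 3.33 for Ahrr and 0.91 to 1.53 for Tiparp.

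The number of genes past 2-fold, 372 towards LI and 222 towards spleen, changed most with the filter. Without a filter it was 623 and 459 among 11946 genes, and with a filter of 200 RPKM it was 70 and 39 among 4323 genes. A pseudocount of 5 left 145 genes towards spleen. GC correction gave 271 and 240 genes, and values without scaling gave 424 and 198.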
